A study of Saccharomyces cerevisiae with 5 samples.

Results

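The 38 genes described here are nuclear genes of Saccharomyces cerevisiae, the budding yeast, that encode subunits of the mitochondrial respiratory chain and of the ATP synthase. They were taken from a given list and matched to the array by open reading frame (ORF) identifier, and all 38 had a spot among the 6205 ORFs on the array. The list holds 4 subunits of complex II (succinate dehydrogenase), 3 NADH dehydrogenases, 9 subunits of complex III (the cytochrome bc1 complex), the 2 forms of cytochrome c, 9 subunits of complex IV (cytochrome c oxidase) and 11 subunits of the ATP synthase.

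Overnight cultures in YP, a rich medium, with 2% glucose were brought to an OD600 of 0.1 in fresh YP holding either 2% or 20% glucose, and total RNA was taken 1 h later. The sources used here name no strain, so both groups are described by their medium alone. Each of 5 two-colour arrays carried RNA of both media, with the 20% RNA in Cy3 on arrays 1, 3 and 4 and in Cy5 on arrays 2 and 5. The labels do not say whether the arrays came from separate cultures or are dye swaps of the same RNA, so the p-values measure the spread between arrays, which may be technical.

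The respiratory chain passes electrons from succinate and NADH through ubiquinone, complex III and cytochrome c to complex IV, which reduces oxygen, and complexes III and IV move protons across the inner mitochondrial membrane. Budding yeast has no proton-pumping complex I and oxidises NADH with single-subunit dehydrogenases instead. The ATP synthase uses the proton gradient to make ATP. Many nuclear genes of the chain are known to be repressed by glucose and to be activated by the HAP complex, in which Hap4 is the regulated subunit.

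All values are log2 ratios with the RNA labelled 20% in the numerator and the RNA labelled 2% in the denominator, with a direction that rests on the dye labels. A ratio compares the share of a gene in both RNA pools, with a median near 0 on each array. It does not show cell number or RNA per cell. By these labels 4 genes with a well-known response ran the opposite way. GPD1, the glycerol 3-phosphate dehydrogenase induced by high osmolarity, was at -3.96 ± 0.97 (SE, n = 5, adjusted p = 0.0733), and GPP2, the glycerol phosphatase that follows it, at -2.33 ± 0.38 (SE, n = 5, adjusted p = 0.043). HXT1, a glucose transporter known to be induced by high glucose, was at -2.54 ± 0.26 (SE, n = 5, adjusted p = 0.0294), and HXT2, one known to be repressed by it, at 2.26 ± 0.15 (SE, n = 5, adjusted p = 0.00924). The RNAs are therefore called by their labels throughout, and every sign below turns if the labels of the dyes are exchanged. Scanner values were used for arrays 4 and 5 alone, and arrays 1 to 3 were assumed to share their scale and sign.

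The arrays hold 5373 to 5804 values each. Over all ORFs arrays 4 and 5 correlated with r = 0.951, arrays 2 and 3 with 0.861, and array 1 with 0.597 and 0.618 to those, while pairs that joined 1 of arrays 1 to 3 with array 4 or 5 lay between 0.256 and 0.374. The genes are described for each of these 2 sets of arrays, a split that was given with the list, as well as over all 5. On arrays 4 and 5 the spots of the 38 genes had a median of 17.1 times their local background, against 12.6 for all ORFs, the dimmest was QCR7 at 2.57 times, and 0 of them were saturated.

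Over the 5 arrays every gene of the list that could be tested had a positive estimate in the RNA labelled 20%, and its size differed between the sets. The median of the 37 tested genes was 0.72, where that of all 5447 tested ORFs was 0.00. The median of the list was 0.19, 0.44 and 0.42 on arrays 1, 2 and 3 and 1.22 and 1.31 on arrays 4 and 5, while that of all ORFs lay between -0.01 and 0.00 on each array. On array 1 the ratio was above 0 for 31 of the 37 genes with a value, on array 2 for 34 of 36, on array 3 for 34 of 37, on array 4 for 38 of 38 and on array 5 for 37 of 37. In all, 29 of the 37 tested genes were above 0 on every array with a value, beside a background of 17.2% of the ORFs tested, and 0 were below 0 on every array, beside 19.4%. QCR7, a complex III subunit, had a value on array 4 alone (0.79) and was not tested.

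**Figure D1:**
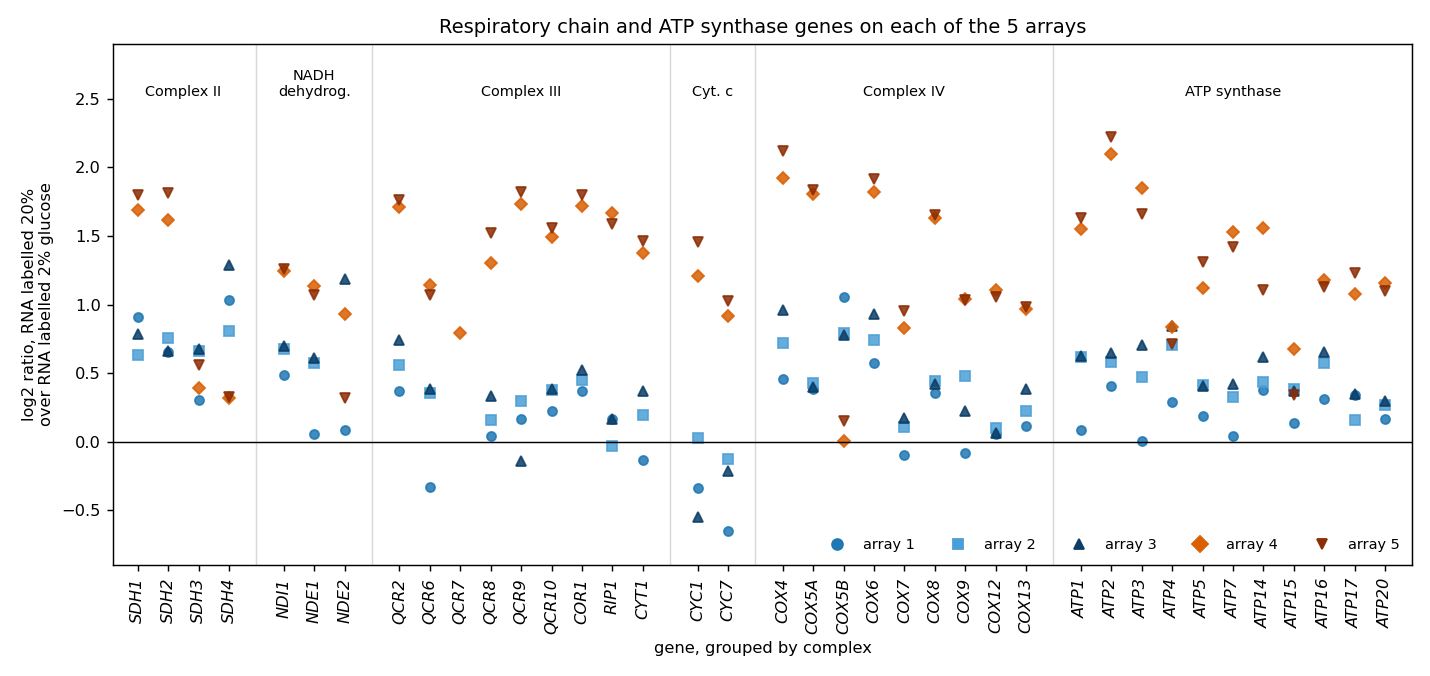
Log2 ratio (RNA labelled 20% over RNA labelled 2% glucose) of each of the 38 genes, grouped by complex, with 1 point per array. Arrays 4 and 5 lie above arrays 1 to 3 for most genes, and COX5B and SDH4 show the reverse order.

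In the limma fit over the 5 arrays, 3 of the 37 genes passed as higher and 0 as lower, beside a background of 2.24% and 1.45% of all ORFs. These were NDI1, SDH3 and ATP4, each with an adjusted p of 0.043, and 28 of the 37 had an unadjusted p under 0.05, as had 28.5% of all ORFs. The 34 others had estimates from 0.23 (CYC7) to 1.27 (COX4), with adjusted p-values from 0.0505 to 0.613. Once the fit also held a term for the array set, 36 of 37 passed as higher and 0 as lower, beside a background of 16.4% and 13.3%, with adjusted p-values from 0.000345 to 0.0371. The exception was NDE2 (0.48, adjusted p = 0.184). The estimate of the fit with that term lies midway between the 2 sets, so a pass does not mean higher in both. CYC1 and CYC7 passed with means of -0.29 and -0.33 on arrays 1 to 3, and COX5B with 0.08 on arrays 4 and 5. Without replicate 1, 2, 3 or 5 the limma fit without that term called 0 of the list, and 3, 2, 0 and 3 of all ORFs tested. An unadjusted p under 0.05 was then held by 29, 32, 24 and 14 listed genes and by 26.4%, 20.5%, 21.5% and 18.4% of all ORFs. Without replicate 4 the fit called 1 listed gene, SDH4, and 91 ORFs.

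For 30 of 37 genes the sets differed past the threshold in the fit that holds the set term. The ratio was larger on arrays 4 and 5 for 28 of them, beside a background of 6.61% of all ORFs, and smaller for 2, SDH4 and COX5B, beside 6.17%. The median difference was 1.01, where that of all ORFs was 0.01. Of the 36 genes with all 5 values, 31 had both values of arrays 4 and 5 above all 3 others, as had 30.2% of ORFs, and 2 had them below, as had 28.7%. The larger differences past the threshold numbered 11 without replicate 2, 5 without replicate 4 and 18 without replicate 5, beside 2.16%, 1.26% and 2.95% of all ORFs, with 0 smaller ones in each case. Without replicate 1 or 3 there were 31 larger and 2 smaller, where 23.6% and 9.18% of all ORFs were larger.

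Fitted alone, arrays 4 and 5 gave 36 of 37 genes higher in the RNA labelled 20% and 0 lower, beside a background of 27.9% and 26.6%, with a median of 1.33. COX5B was the exception (0.08, adjusted p = 0.319). Arrays 1 to 3 gave 15 of 36 higher and 0 lower, beside a background of 11.5% and 5.96%, with a median of 0.41. Without the dye term, arrays 1 to 3 gave 27 higher without replicate 1, 7 without replicate 2 and 4 without replicate 3, beside 20.8%, 6.46% and 3.05% of all ORFs. In the fit of all 3 arrays, the 21 genes that did not pass ranged from -0.28 (CYC7) to 0.45 (NDE1). With 1 residual degree of freedom in each of these fits, the p-values draw mainly on the spread that limma pools over all ORFs.

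**Figure D2:**
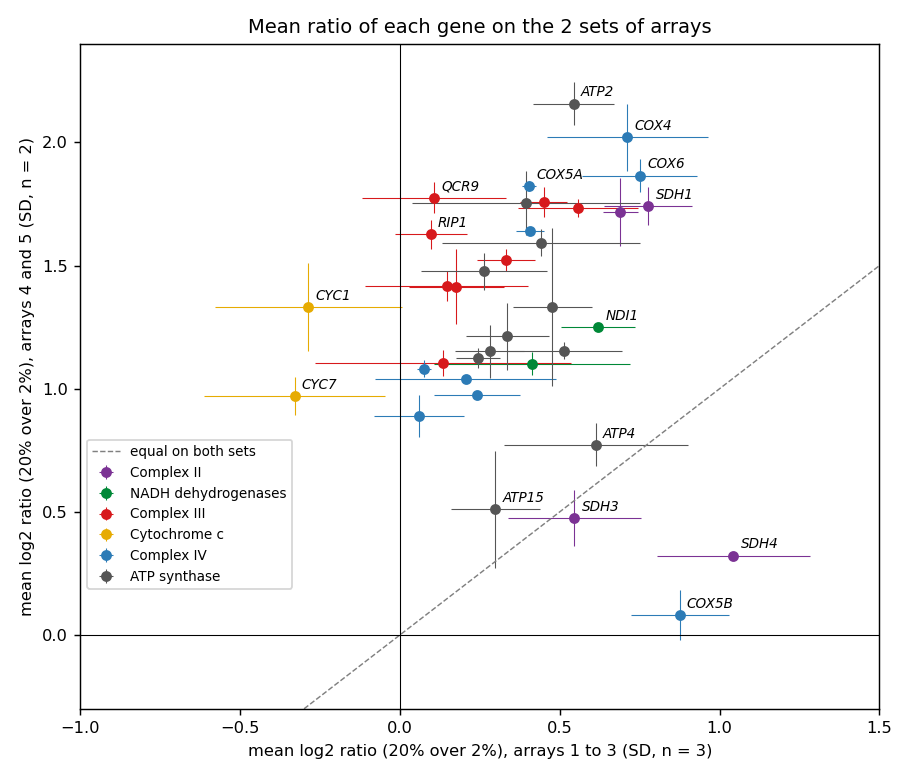
Mean log2 ratio (RNA labelled 20% over RNA labelled 2% glucose) on arrays 1 to 3 (horizontal axis) against the mean on arrays 4 and 5 (vertical axis) for the 36 genes with all 5 values, coloured by complex. Bars are the SD over 3 and over 2 arrays and the dashed line marks equal means. SDH3, SDH4 and COX5B lie below that line, and CYC1 and CYC7 are left of 0.

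The order of the genes differed between the sets. Across the 36 genes with all 5 values the set means had a Pearson r of -0.03 and a Spearman rho of 0.165, while rho was 0.958 between arrays 4 and 5, 0.912 between arrays 2 and 3, 0.725 between arrays 1 and 3 and 0.73 between arrays 1 and 2. Between ORF length and the set mean, rho was 0.556 on arrays 1 to 3 and 0.327 on arrays 4 and 5. These are descriptions across genes that share the same arrays, and a role of ORF length was not tested.

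Complex II split into its catalytic and its membrane subunits. SDH1, the flavoprotein that oxidises succinate, was at 0.91, 0.64 and 0.78 on arrays 1 to 3 and 1.69 and 1.80 on arrays 4 and 5. SDH2, the iron-sulfur subunit, was at 0.66, 0.75 and 0.66 on arrays 1 to 3 and 1.62 and 1.82 on arrays 4 and 5. The sets did not overlap for either gene, with arrays 4 and 5 higher, as for 30.2% of ORFs with all 5 values. The difference between the sets was 0.98 ± 0.14 (SE, n = 5, adjusted p = 0.015) for SDH1 and 1.01 ± 0.13 (SE, n = 5, adjusted p = 0.00996) for SDH2.

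The membrane anchors, which bind ubiquinone and heme, did not share that order. SDH3 was at 0.30, 0.66 and 0.67 on arrays 1 to 3 and 0.40 and 0.56 on arrays 4 and 5, with sets that overlap, and was higher over the 5 arrays at 0.53 ± 0.09 (SE, n = 5, adjusted p = 0.043), or 1.45-fold. SDH4 was at 1.03, 0.81 and 1.29 on arrays 1 to 3 and 0.32 and 0.32 on arrays 4 and 5. It had the highest mean of the list on arrays 1 to 3, 1.04 ± 0.24 (SD, n = 3), or 2.06-fold, and the lowest but 1 on arrays 4 and 5, 0.32 ± 0.00163 (SD, n = 2). Its difference between the sets was -0.69 ± 0.16 (SE, n = 5, adjusted p = 0.0454), and did not pass without replicate 2 or with values of 10 or more kept as deposited. All 4 genes of complex II passed as higher within each set, beside 11.5% of all ORFs within arrays 1 to 3 and 27.9% within arrays 4 and 5. However, SDH3 did not pass within arrays 1 to 3 without replicate 2 or 3. The spots for SDH1, SDH3 and SDH4 may also take up RNA of the paralogs YJL045W, SHH3 and SHH4.

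Among the NADH dehydrogenases, NDI1, which oxidises NADH of the matrix, was at 0.49, 0.67 and 0.70 on arrays 1 to 3 and 1.24 and 1.26 on arrays 4 and 5. It was higher over the 5 arrays at 0.89 ± 0.15 (SE, n = 5, adjusted p = 0.043), or 1.85-fold, and its sets differed by 0.62 ± 0.14 (SE, n = 5, adjusted p = 0.04). NDE1 and NDE2 face the other side of the inner membrane and oxidise cytosolic NADH. NDE1 was at 0.06, 0.57 and 0.61 on arrays 1 to 3 and 1.14 and 1.07 on arrays 4 and 5, with an estimate of 0.71 ± 0.18 (SE, n = 5, adjusted p = 0.0744). NDE2 had no value on array 2. It was at 0.08 and 1.19 on arrays 1 and 3 and at 0.93 and 0.32 on arrays 4 and 5, the widest scatter of the list within both sets. NDE1 minus NDE2 was 0.09 ± 0.55 (SD, n = 4), with an exact two-sided sign-flip p of 0.75 and a smallest possible p of 0.125.

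Complex III had low ratios on arrays 1 to 3 and high ones on arrays 4 and 5, with a median of the gene means of 0.16 and 1.52. Of its 8 tested genes 7 had a larger ratio on arrays 4 and 5 past the threshold, beside 6.61% of all ORFs. COR1 and QCR2, which encode its core proteins and have its longest ORFs (1374 and 1107 bases), had the highest means of the complex on arrays 1 to 3. COR1 was at 0.37, 0.45 and 0.52 on arrays 1 to 3 and 1.72 and 1.80 on arrays 4 and 5. QCR2 was at 0.37, 0.56 and 0.74 on arrays 1 to 3 and 1.71 and 1.76 on arrays 4 and 5. Their sets differed by 1.30 ± 0.13 (SE, n = 5, adjusted p = 0.00604) for COR1 and 1.17 ± 0.16 (SE, n = 5, adjusted p = 0.0126) for QCR2.

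The subunits that carry the iron-sulfur cluster and heme c1 of complex III had means of 0.10 and 0.15 on arrays 1 to 3. RIP1, the Rieske iron-sulfur protein, was at 0.16, -0.03 and 0.16 on arrays 1 to 3 and 1.67 and 1.59 on arrays 4 and 5, or 1.07-fold against 3.09-fold. Its difference of 1.56 ± 0.13 (SE, n = 5, adjusted p = 0.0041) had the smallest adjusted p of the list. CYT1, cytochrome c1, was at -0.13, 0.20 and 0.37 on arrays 1 to 3 and 1.37 and 1.46 on arrays 4 and 5, with a difference of 1.26 ± 0.18 (SE, n = 5, adjusted p = 0.0149). Each of these genes had 1 value below 0 among arrays 1 to 3 and none on arrays 4 and 5.

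QCR9, a small subunit of complex III, showed the largest difference between the sets among the listed genes, 1.64 ± 0.16 (SE, n = 5, adjusted p = 0.00526). It was at 0.17, 0.29 and -0.14 on arrays 1 to 3 and 1.73 and 1.82 on arrays 4 and 5. QCR8 was at 0.04, 0.16 and 0.33 on arrays 1 to 3 and 1.31 and 1.52 on arrays 4 and 5. QCR10 was at 0.23, 0.38 and 0.39 on arrays 1 to 3 and 1.49 and 1.56 on arrays 4 and 5. Both also had a larger ratio on arrays 4 and 5 past the threshold, beside 6.61% of all ORFs. Their sets did not overlap, beside 30.2% of ORFs with all 5 values in that direction. QCR6, the acidic hinge subunit, was at -0.33, 0.35 and 0.38 on arrays 1 to 3 and 1.14 and 1.07 on arrays 4 and 5, and its difference of 0.94 ± 0.24 (SE, n = 5, adjusted p = 0.0595) did not pass.

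Cytochrome c, the mobile carrier between complexes III and IV, had negative means on arrays 1 to 3 and positive ones on arrays 4 and 5. CYC1, which encodes the main aerobic form, was at -0.34, 0.03 and -0.55 on arrays 1 to 3 and 1.21 and 1.46 on arrays 4 and 5. CYC7, the form known to be favoured at low oxygen, was at -0.65, -0.12 and -0.21 on arrays 1 to 3 and 0.91 and 1.02 on arrays 4 and 5. These were the 2 genes of the list with a negative mean on arrays 1 to 3, -0.29 ± 0.29 (SD, n = 3) and -0.33 ± 0.28 (SD, n = 3), and neither passed as lower there (limma adjusted p = 0.322 and 0.21). Between the sets CYC1 differed by 1.56 ± 0.14 (SE, n = 5, adjusted p = 0.00501) and CYC7 by 1.26 ± 0.18 (SE, n = 5, adjusted p = 0.0131). CYC1 minus CYC7 was 0.17 ± 0.30 (SD, n = 5), with an exact two-sided sign-flip p of 0.312.

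Complex IV spanned a wide range. COX4, a subunit that binds zinc, was at 0.46, 0.72 and 0.96 on arrays 1 to 3 and 1.93 and 2.12 on arrays 4 and 5, and had the largest estimate of the list over the 5 arrays (1.27, limma adjusted p = 0.0645). COX6 was at 0.57, 0.74 and 0.93 on arrays 1 to 3 and 1.82 and 1.91 on arrays 4 and 5. Both genes passed as higher within each set, though not within arrays 1 to 3 without replicate 3. Of all ORFs 11.5% passed as higher within arrays 1 to 3 and 27.9% within arrays 4 and 5. The sets of COX4 and COX6 did not overlap, with arrays 4 and 5 higher, as for 30.2% of ORFs with all 5 values.

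COX5A and COX5B encode alternative forms of subunit V, of which COX5A is known as the aerobic and COX5B as the hypoxic form. COX5A was at 0.38, 0.43 and 0.40 on arrays 1 to 3 and 1.81 and 1.84 on arrays 4 and 5. COX5B was at 1.05, 0.80 and 0.78 on arrays 1 to 3 and 0.01 and 0.15 on arrays 4 and 5. COX5A thus had the lower ratio of the pair on each of arrays 1 to 3 and the higher one on arrays 4 and 5. By gene, the difference between the sets was 1.41 ± 0.12 (SE, n = 5, adjusted p = 0.00473) for COX5A and -0.79 ± 0.15 (SE, n = 5, adjusted p = 0.0292) for COX5B. That of COX5B did not pass without replicate 2 or with values of 10 or more kept as deposited. COX5A minus COX5B was -0.47 ± 0.17 (SD, n = 3) on the first 3 arrays. It was 1.74 ± 0.08 (SD, n = 2) on the last 2. Over all arrays it was 0.41 ± 1.22 (SD, n = 5), with an exact two-sided sign-flip p of 0.5. With 5 arrays this test cannot go below 0.063, so it cannot pass 0.05, and over the 3 isoform pairs the adjusted p was 0.75 for each. The spots of such pairs may also share RNA of the other form.

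**Figure D3:**
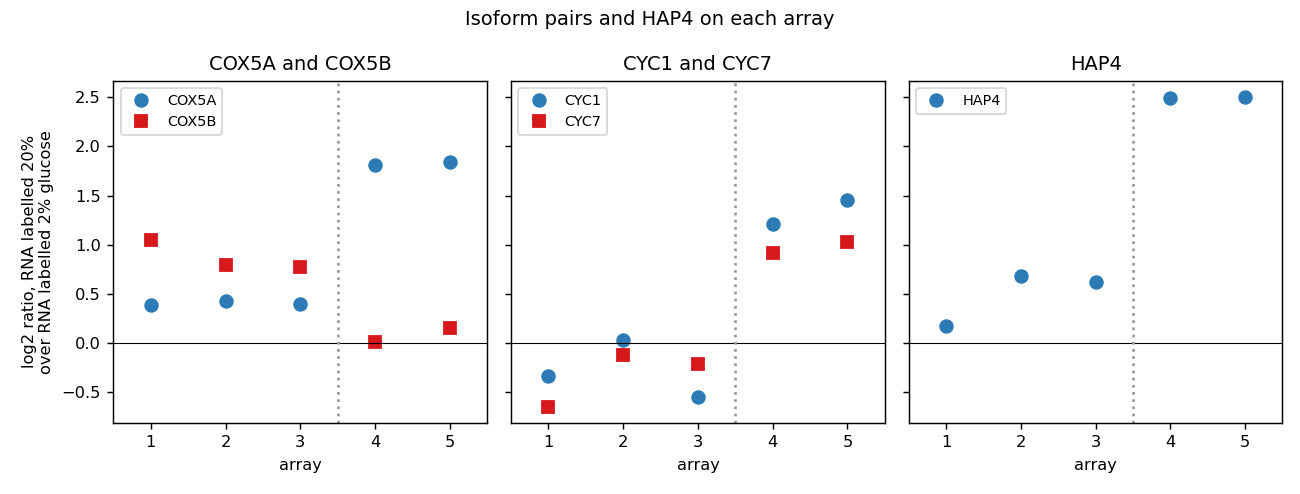
Log2 ratio (RNA labelled 20% over RNA labelled 2% glucose) of COX5A and COX5B, of CYC1 and CYC7 and of HAP4 on each array, with a dotted line between the 2 sets. COX5A and COX5B change places between the sets, CYC1 and CYC7 are both higher on arrays 4 and 5, and HAP4 is at 2.49 and 2.51 on arrays 4 and 5.

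The 5 other genes of complex IV encode small nuclear subunits around its catalytic core. All had a larger ratio on arrays 4 and 5 past the threshold, beside 6.61% of all ORFs. COX12 was at 0.06, 0.10 and 0.07 on arrays 1 to 3 and 1.11 and 1.06 on arrays 4 and 5. COX8 was at 0.36, 0.44 and 0.42 on arrays 1 to 3 and 1.63 and 1.65 on arrays 4 and 5. Both repeated closely within each set, with an SD of at most 0.045. COX13 was at 0.11, 0.23 and 0.38 on arrays 1 to 3 and 0.97 and 0.98 on arrays 4 and 5. COX7 was at -0.10, 0.11 and 0.17 on arrays 1 to 3 and 0.83 and 0.95 on arrays 4 and 5, and COX9 at -0.09, 0.48 and 0.22 on arrays 1 to 3 and 1.04 and 1.03 on arrays 4 and 5. These last 2 were below 0 on array 1, and the other 3 were above 0 on every array.

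All 11 genes of the ATP synthase were above 0 on every array, beside 17.2% of the ORFs tested. In the F1 head, ATP2, which encodes the catalytic beta subunit, was at 0.40, 0.58 and 0.65 on arrays 1 to 3 and 2.10 and 2.22 on arrays 4 and 5. Its mean of 2.16 ± 0.09 (SD, n = 2) on arrays 4 and 5, or 4.46-fold, was the highest of the list there. ATP1, the alpha subunit, was at 0.09, 0.62 and 0.62 on arrays 1 to 3 and 1.55 and 1.63 on arrays 4 and 5. ATP3, the gamma subunit of the rotor, was at 0.01, 0.47 and 0.71 on arrays 1 to 3 and 1.85 and 1.66 on arrays 4 and 5. Between the sets the difference was 1.12 ± 0.20 (SE, n = 5, adjusted p = 0.0223) for ATP1, 1.60 ± 0.14 (SE, n = 5, adjusted p = 0.00474) for ATP2 and 1.36 ± 0.24 (SE, n = 5, adjusted p = 0.0221) for ATP3.

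The small rotor subunits of F1 had smaller differences. ATP16, the delta subunit, was at 0.31, 0.57 and 0.66 on arrays 1 to 3 and 1.18 and 1.13 on arrays 4 and 5, with a difference of 0.63 ± 0.16 (SE, n = 5, adjusted p = 0.0544). ATP15, the epsilon subunit, had values from 0.14 to 0.68, with a difference of 0.22 ± 0.17 (SE, n = 5, adjusted p = 0.409). Neither difference passed, and the sets overlap for ATP15.

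Of the stalk and membrane subunits, ATP4, subunit b of the peripheral stalk, was higher over the 5 arrays at 0.68 ± 0.11 (SE, n = 5, adjusted p = 0.043), or 1.6-fold. It was at 0.29, 0.71 and 0.84 on arrays 1 to 3 and 0.83 and 0.71 on arrays 4 and 5, with overlapping sets and its lowest value on array 1. The 5 others had a larger ratio on arrays 4 and 5 past the threshold, with differences from 0.85 to 1.21, beside 6.61% of all ORFs. ATP5, which joins the stalk to F1, was at 0.19, 0.41 and 0.41 on arrays 1 to 3 and 1.12 and 1.31 on arrays 4 and 5. ATP7, subunit d of the stalk, was at 0.04, 0.33 and 0.42 on arrays 1 to 3 and 1.53 and 1.42 on arrays 4 and 5. ATP14, subunit h, was at 0.38, 0.43 and 0.61 on arrays 1 to 3 and 1.56 and 1.11 on arrays 4 and 5. ATP17, subunit f, was at 0.34, 0.15 and 0.35 on arrays 1 to 3 and 1.07 and 1.23 on arrays 4 and 5. ATP20, subunit g, was at 0.17, 0.27 and 0.30 on arrays 1 to 3 and 1.16 and 1.10 on arrays 4 and 5. In these 5 genes both values of arrays 4 and 5 were above 1, and the others below. The median of the gene means on arrays 4 and 5 was 1.59 for the 5 F1 genes and 1.18 for the 6 stalk and membrane genes, a difference that was not tested.

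HAP4, the regulated subunit of the HAP activator, was at 0.18, 0.68 and 0.62 on arrays 1 to 3 and 2.49 and 2.51 on arrays 4 and 5. Its difference between the sets was 1.98 ± 0.18 (SE, n = 5, adjusted p = 0.00501), and over the 5 arrays it was at 1.35 ± 0.42 (SE, n = 5, adjusted p = 0.112). HAP4 thus had a mean of 1.41-fold on arrays 1 to 3 and of 5.65-fold on arrays 4 and 5. HAP3 and HAP5, which belong to the part of the complex that binds DNA, lay between -0.40 and 0.28 on all arrays with a value. HAP3 was at -0.31 ± 0.08 (SE, n = 5, adjusted p = 0.0763), and HAP1, a heme-dependent activator outside that complex, at 0.34 ± 0.10 (SE, n = 4, adjusted p = 0.123). In the fit over the 5 arrays 0 of the 5 listed HAP genes passed by limma, where 2.24% of all ORFs passed as higher and 1.45% as lower. Of the 5 HAP genes 3 had an unadjusted p under 0.05, beside 28.5% of all ORFs.

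Genes that build the complexes had other medians than the subunits. Of 35 on the array for the assembly of complexes II to V, 31 were tested, with a median of 0.17. Beside 2.24% and 1.45% of all ORFs, 3 passed as higher and 0 as lower over the 5 arrays. These were CYC3, the enzyme that attaches heme to cytochrome c, at 0.85 ± 0.12 (SE, n = 5, adjusted p = 0.0417), ATP12, an assembly factor of F1, at 0.64 ± 0.09 (SE, n = 5, adjusted p = 0.0417), and CBP4, an assembly factor of complex III, at 0.54 ± 0.09 (SE, n = 5, adjusted p = 0.044). CBP3 was at 0.31 ± 0.08 (SE, n = 5, adjusted p = 0.0871). The median of the gene means of this list was 0.33 on arrays 1 to 3 and -0.01 on arrays 4 and 5. By the set term 0 of the 31 passed as larger on arrays 4 and 5 and 3 as smaller, beside 6.61% and 6.17% of all ORFs. The 3 were SDH7, FMP25 and COX17, named here after their values were seen. COX17, a copper chaperone of complex IV, was at 0.27, 0.25 and 0.28 on arrays 1 to 3 and -0.54 and -0.51 on arrays 4 and 5, and its sets differed by -0.79 ± 0.12 (SE, n = 5, adjusted p = 0.0181).

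The 10 genes of coenzyme Q synthesis, which make the ubiquinone that links complexes II and III, had the same order of sets. Their median of the gene means was 0.49 on arrays 1 to 3 and 0.09 on arrays 4 and 5. By limma 0 of 10 passed over the 5 arrays, where 2.24% of all ORFs passed as higher and 1.45% as lower. An unadjusted p under 0.05 was held by 5 of the 10, beside 28.5% of all ORFs. COQ2 was at 0.40 ± 0.09 (SE, n = 5, adjusted p = 0.063), and CAT5, COQ4 and COQ6 were at 0.45, 0.41 and 0.39. One gene, COQ8, had a set difference past the threshold, -0.74 ± 0.13 (SE, n = 5, adjusted p = 0.0227), and was named after its value was seen. Of all ORFs 6.17% had a smaller ratio on arrays 4 and 5 past the threshold.

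Of 19 tested genes for the expression of mitochondrial DNA, with a median of 0.04, 0 passed over the 5 arrays by limma. Of all ORFs 2.24% passed as higher and 1.45% as lower. An unadjusted p under 0.05 was held by 7 of the 19, beside 28.5% of all ORFs. CBP1, which stabilises the cytochrome b message, was at -0.39 ± 0.08 (SE, n = 5, adjusted p = 0.0551). MSS51, an activator of COX1 translation, was at 0.41 ± 0.12 (SE, n = 5, adjusted p = 0.104), and PET54 at -0.23 ± 0.08 (SE, n = 5, adjusted p = 0.14). RPO41, the mitochondrial RNA polymerase, was at 0.26, 0.14 and 0.23 on arrays 1 to 3 and 0.94 and 0.89 on arrays 4 and 5. It was the 1 gene of that list whose ratio was larger on arrays 4 and 5 past the threshold, by 0.72 ± 0.12 (SE, n = 5, adjusted p = 0.0224). Of all ORFs 6.61% were larger in this way. The subunits encoded by mitochondrial DNA were not analysed here.

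**Figure D4:**
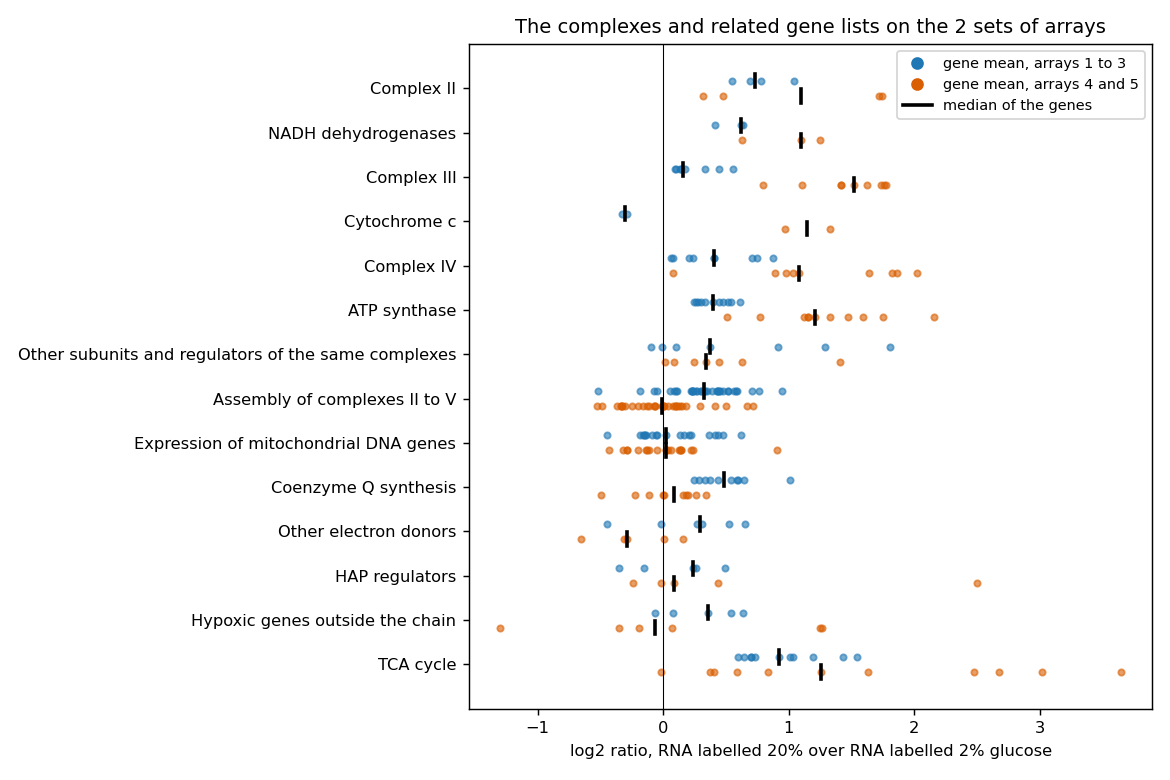
Mean log2 ratio (RNA labelled 20% over RNA labelled 2% glucose, horizontal axis) of each gene on arrays 1 to 3 and on arrays 4 and 5, by complex and by related gene list, with black bars at the medians. Each complex and the TCA cycle have their median on arrays 4 and 5 to the right of that on arrays 1 to 3. The list for the expression of mitochondrial DNA has both medians nearly level. All other related lists shown have the median on arrays 4 and 5 to the left.

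Other subunits and regulators of the same complexes were represented by 7 tested genes. Beside 2.24% and 1.45% of all ORFs, 1 of them passed as higher over the 5 arrays and 0 as lower. It was INH1, the inhibitor of ATP hydrolysis by the ATP synthase, with no value on array 2. INH1 was at 0.98 and 1.60 on arrays 1 and 3 and at 1.37 and 1.45 on arrays 4 and 5, an estimate of 1.38 ± 0.15 (SE, n = 4, adjusted p = 0.0417), or 2.6-fold. STF1, a protein related to it, was at 0.86, 1.71 and 2.85 on arrays 1 to 3 and 0.68 and 0.57 on arrays 4 and 5, an estimate of 1.30 ± 0.37 (SE, n = 5, adjusted p = 0.093). STF2 was at 0.87 ± 0.19 (SE, n = 4, adjusted p = 0.0685). TIM11, a subunit that takes part in the dimer of the ATP synthase, was at 0.35 ± 0.10 (SE, n = 5, adjusted p = 0.0878).

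Other enzymes that feed electrons to the chain, and paralogs of complex II subunits, were represented by 5 tested genes. By limma 0 passed over the 5 arrays, where 2.24% of all ORFs passed as higher and 1.45% as lower. An unadjusted p under 0.05 was held by 0 of the 5 genes, beside 28.5% of all ORFs. GUT2, the mitochondrial glycerol 3-phosphate dehydrogenase, was at 0.37 ± 0.18 (SE, n = 5, adjusted p = 0.228). CYB2, the lactate dehydrogenase that reduces cytochrome c, was at -0.14, and the paralogs SHH4 and SHH3 at -0.15 and -0.14.

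Hypoxic genes outside the chain, 5 of them tested, were set beside COX5B and CYC7. Of the 5, 1 passed as higher over the 5 arrays and 0 as lower, where 2.24% and 1.45% of all ORFs did. It was AAC3, the hypoxic ADP/ATP carrier, at 0.91 ± 0.14 (SE, n = 5, adjusted p = 0.043). AAC3 was at 0.56, 0.74 and 0.62 on arrays 1 to 3 and 1.20 and 1.30 on arrays 4 and 5, an order of sets opposite to that of COX5B. HMG2 was at 0.25 ± 0.10 (SE, n = 5, adjusted p = 0.178), HEM13 at 0.62 ± 0.25 (SE, n = 5, adjusted p = 0.178) and ANB1 at -0.11 ± 0.09 (SE, n = 5, adjusted p = 0.469). By the set term AAC3 passed as larger on arrays 4 and 5, by 0.59 ± 0.13 (SE, n = 5, adjusted p = 0.0364), as did HEM13, by 1.11 ± 0.20 (SE, n = 5, adjusted p = 0.0239). OLE1 passed as smaller, at -1.90 ± 0.27 (SE, n = 5, adjusted p = 0.0131). These were named for their set difference after their values were seen.

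In the TCA cycle, which supplies NADH and succinate and shares complex II with the chain, the median of the 11 tested genes was 0.94. Over the 5 arrays 5 of the 11 passed as higher and 0 as lower, beside 2.24% and 1.45% of all ORFs. LPD1, a dehydrogenase subunit, was at 0.77 ± 0.10 (SE, n = 5, adjusted p = 0.0373), CIT1, citrate synthase, at 1.96 ± 0.27 (SE, n = 5, adjusted p = 0.0422), KGD1, a subunit of ketoglutarate dehydrogenase, at 0.62 ± 0.09 (SE, n = 5, adjusted p = 0.0422), and FUM1, fumarase, at 0.94 ± 0.14 (SE, n = 5, adjusted p = 0.0422). The fifth was KGD2, at 0.54 ± 0.10 (SE, n = 5, adjusted p = 0.0452). By the set term 3 genes passed as larger on arrays 4 and 5 and 1 as smaller, beside 6.61% and 6.17% of all ORFs. The former were ACO1, IDH1 and IDH2, and the latter was LSC2, a subunit of succinyl-CoA ligase. LSC2 was at 1.01, 1.14 and 1.42 on arrays 1 to 3 and 0.00 and -0.04 on arrays 4 and 5. KGD2 and the genes with a difference between the sets were named after their values were seen. In the 5-array fit 13 genes of the related lists and the label check passed, and of those still tested 0 passed without replicate 1 or 3, 1 without replicate 2 or 5 and 7 without replicate 4. Of the 15 with a set difference past the threshold, 8 passed without replicate 2, 7 without replicate 4, 9 without replicate 5 and all without replicate 1 or 3.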

How the data were processed

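The authors' deposited table holds log2 ratios of the Cy5 and Cy3 channels with a median near 0 on each array, made with software that no source used here names. Per the file headers, the scanner tables of arrays 4 and 5 hold spot and background intensity, a centred log2 ratio, and a quality score (flag). On arrays 4 and 5, 258 and 262 deposited values were 10 or more in size, at a median of 10.18 times the size of the scanner ratio. They were divided by 10. The correlation with the scanner ratios then went from 0.775 to 0.991 on array 4 and from -0.77 to -0.964 on array 5, so the table runs as Cy5 over Cy3 on the former and the other way on the latter. Division concerned 24 of 38 and 25 of 37 values of the listed genes, whose values then lay a median of 0.05 and 0.06 from ratios computed from the intensities. All values were multiplied by -1.

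Spots of an ORF were averaged. ORFs with at least 4 values were fitted in R 4.3.3 with limma 3.58.1, using a glucose and a dye term and moderated variances. Tests were two-sided, with Benjamini-Hochberg adjustment over all ORFs tested and a threshold of 0.05. Further fits added the array set (arrays 4 and 5 minus arrays 1 to 3) or used each set alone, arrays 4 and 5 without the dye term. The fit was also run on simulated data with independent noise on each array, which did not model the difference between the array sets. Isoform pairs were compared with exact sign-flip tests over arrays. The symbols of the scanner tables and of a RefSeq gene table (R64) were the same for all 38 genes, and spots may not separate paralogs or antisense RNA. Of 115 genes in the related lists, 104 were on the array.

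Values on every array are given for listed genes with the 8 smallest p, a set difference past the threshold or a negative value, and for isoform pairs; of each related list up to 4 genes with the smallest p are named. The genes and lists were chosen with earlier results of these data known.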

Additional observations from a re-analysis of the deposited data

Results flagged for a closer look

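For 30 genes of the list the ratio differed between arrays 1 to 3 and arrays 4 and 5 by the test of the set term. The differences, arrays 4 and 5 minus arrays 1 to 3 on the log2 scale, were 0.98 for SDH1, 1.01 for SDH2, -0.69 for SDH4 and 0.62 for NDI1. In complex III they were 1.17 for QCR2, 1.23 for QCR8, 1.64 for QCR9, 1.18 for QCR10, 1.30 for COR1, 1.56 for RIP1 and 1.26 for CYT1, and for cytochrome c 1.56 for CYC1 and 1.26 for CYC7. In complex IV they were 1.30 for COX4, 1.41 for COX5A, -0.79 for COX5B, 1.11 for COX6, 0.81 for COX7, 1.23 for COX8, 0.79 for COX9, 1.01 for COX12 and 0.74 for COX13. In the ATP synthase they were 1.12 for ATP1, 1.60 for ATP2, 1.36 for ATP3, 0.85 for ATP5, 1.21 for ATP7, 0.89 for ATP14, 0.88 for ATP17 and 0.88 for ATP20. Among the related genes the same test gave -0.85 for SDH7, -0.72 for FMP25, -0.79 for COX17, 0.72 for RPO41, -0.74 for COQ8, 1.98 for HAP4, 1.11 for HEM13, 0.59 for AAC3, -1.90 for OLE1, 2.20 for ACO1, 1.68 for IDH1, 1.96 for IDH2 and -1.20 for LSC2, and in the check of the dye labels -4.69 for GPD1 and -1.80 for GPP2. What separates the sets of arrays is not given in the labels and was not tested.

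ATP4 on array 1, at 0.29, lay far below its values on the other 4 arrays by Dixon's test at the 95% level. The same held for HAP1 on array 4, at 0.61 the highest of 4 values, for LPD1 on array 1, at 0.41, and for HXT2 on array 2, at 1.54. Chance gives such a mark to about 1 in 20 groups, and ATP4 was the 1 gene marked among the 36 listed genes with 5 values.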

How the results depend on the processing

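The count of 3 genes higher over the 5 arrays was 0 with values of 10 or more kept as deposited, beside 0.0184% of all ORFs. It was 0 with background-subtracted scanner ratios of arrays 4 and 5, beside 0.687%. There NDI1, SDH3 and ATP4 had limma adjusted p-values from 0.0509 to 0.0512. The count was 4 with normexp and loess on the scanner values, beside 2.26%. It was 5 with arrays scaled to the same spread, 6 with all 5 values required, 8 with array weights, 18 without the dye term and 36 with the array set as a term, where 2.99%, 3.52%, 4.28%, 8.5% and 16.4% of all ORFs were called higher against 2.24% as reported. It was from 0 to 1 with 1 array left out. NDI1, SDH3 and ATP4 were all among the genes called with 5, 6, 8, 18 and 36. Kept as deposited, the medians were 4.67 over the 5 arrays, 10.9 for the set difference and 11 on arrays 4 and 5, and the smaller set differences went from 2 to 0. With normexp and loess on the scanner values the median on arrays 4 and 5 was 1.24. With 1 array left out, larger set differences numbered 5 to 31 and smaller ones 0 to 2, where a lone array of a set is assumed to vary like the others. Signs turned only for values that did not pass: the set difference of NDE2, at -0.011 without the dye term and -0.016 with array weights, and those of ATP4 (-0.0017 to 0.274) and ATP15 (-0.040 to 0.423) and the 5-array estimate of CYC7 (-0.054 to 0.521) with 1 array left out. NDE1 minus NDE2 ranged from -0.13 to 0.31, lowest without replicate 5. For the related genes that passed, the same alternatives, added after seeing the data, turned 0 signs, and of the 13 called over the 5 arrays 1 passed as deposited and 6 with background-subtracted scanner ratios, and of the 15 with a set difference 10 passed as deposited and 7 to 15 with 1 array left out. The causes were not tested. Each array holds both RNAs, so its ratio is already a paired comparison. All arrays form 1 group, and no further pairing between arrays was used. With 1 array left out of arrays 1 to 3, which was added after seeing the data and needs the dye term dropped, 4 to 27 genes were higher there. Arrays 4 and 5 with 1 removed leave 0 residual degrees of freedom and gave no test. Few arrays limit the precision.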
